A study of Mus musculus with 3 samples.

Results

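The genes of the cytosolic ribosome are described here in microglia, the resident macrophages of the brain, from mice with and without a transgene for human CD33. Members were chosen by name: symbols beginning with Rpl or Rps and a number, plus Rpsa, Rplp0, Rplp1 and Rplp2, with at least 20 CPM over all kept cells, where CPM is the UMIs of a gene scaled by the total of the same cells. Of 15338 genes listed in any of the 3 libraries, 82 carried such a symbol and 80 reached the minimum, 48 for the large subunit and 32 for the small subunit, all listed in every library. Rpl39l at 3.338 CPM and Rpl3l at 0.1105 CPM fell under it, and Rpl10l and Rps4l had no entry.

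Each of 3 genotypes gave 1 droplet library of sorted brain cells, from the experiment labelled as the second and from mice aged 8 weeks. Control mice were labelled wild type and male, hCD33M mice were male and hCD33m mice were female, so sex cannot be told apart from genotype in any comparison with hCD33m. hCD33M denotes the long and hCD33m the short isoform of human CD33, a receptor of myeloid cells. Per the study, the long isoform holds the domain that binds sialic acid and represses phagocytosis. The short isoform lacks that domain, and the study reports that it enhances phagocytosis. Each transgene sat in the Rosa26 locus behind a stop that Cre recombinase from the Cx3cr1 locus removes, so cells other than microglia that use Cx3cr1 can carry it too. Per the study's methods, every brain was perfused and stored with the transcription inhibitors actinomycin D and triptolide, the translation inhibitor anisomycin was added for storage, and cells were sorted as positive for CD11b, CD45 and Cx3cr1. The study describes pooling the animals of a genotype for its single-cell work but does not give their number for this experiment, so the spread between animals is unknown. With 1 library per genotype there is no test between genotypes, and every interval given is an exact 95% interval that covers counting error only.

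The libraries held 3482 cells for Control, 5100 for hCD33M and 5707 for hCD33m, with medians of 5436.5, 5078.5 and 5137 UMIs over the 3412, 5046 and 5612 cells kept. Between 7 and 10 cell barcodes were shared by each pair of libraries. Clustering without the ribosomal protein genes gave microglia-like, border-associated macrophage-like and monocyte-like cells, with 3012, 4539 and 4904 microglia-like cells in Control, hCD33M and hCD33m. These carried the microglial marker P2ry12 at 3246.6, 3361.2 and 3466 CPM. A further 298, 383 and 553 cells of low depth stayed unnamed.

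A ribosome is built from a small subunit that reads the mRNA and a large subunit that joins amino acids, and most of the proteins are needed in equal number. Many of these mRNAs begin with a run of pyrimidines, the 5′ terminal oligopyrimidine or TOP motif, through which the kinase mTOR and the binding protein Larp1 control their translation and stability together. These mRNAs are among the most abundant of any cell, and many have left processed copies in the genome.

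The sequences around the start of transcription are shown for members on which the results below turn. RefSeq promoters on GRCm38.p6 were found for 60 of the 80 members, and each window runs from 15 bases before the start on the gene's strand. Capitals mark the longest unbroken run of C and T that touches the bases from 10 before to 10 after the start, where it has at least 7 letters. The first 4 members have such a run: Rpl7a, with the longest run of 21 letters, Rpl35 and Rpl13a, which were lowest in hCD33m against Control or hCD33M, and Rpl38, which was high in both other cell classes. The run of Rpl13a goes on for 1 letter past the window. The last 4 do not: Rps28 and Rpl41, which were highest in hCD33m against Control, Rpl10, which was low in both transgenic libraries, and Rpsa, which was highest in monocyte-like cells. Their windows are chr2:26910792-26910821 (plus strand), chr2:39005117-39005146 (minus), chr7:45128731-45128760 (minus), chr11:114668565-114668594 (plus), chr17:33824548-33824577 (minus), chr10:128549154-128549183 (minus), chrX:74270801-74270830 (plus) and chr9:120127751-120127780 (plus), in that order.
Rpl7a: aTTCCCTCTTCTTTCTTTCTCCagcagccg
Rpl35: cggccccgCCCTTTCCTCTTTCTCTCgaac
Rpl13a: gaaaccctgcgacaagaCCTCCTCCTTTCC
Rpl38: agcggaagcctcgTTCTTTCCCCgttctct
Rps28: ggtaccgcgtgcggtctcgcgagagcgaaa
Rpl41: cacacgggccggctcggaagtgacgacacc
Rpl10: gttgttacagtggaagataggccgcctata
Rpsa: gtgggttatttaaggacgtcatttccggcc

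Such a run was present at 33 of the 60 members, or 55%, against 22.99% of 26963 other genes in the table and 20.21% of all 32851 promoters. Among 5222 other genes with at least 20 CPM in these cells the share was 23.86%. The median longest run was 7 letters in members and 5 in other genes. The annotated start can lie some bases from the start that these cells use, so a window without a run says only that the letters are not there.

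Of all UMIs in microglia-like cells, the members took up 7.66% for Control (interval 7.648 to 7.671), 7.34% for hCD33M (7.33 to 7.35) and 6.625% for hCD33m (6.616 to 6.634). The large subunit held 4.3%, 4.098% and 3.695% of UMIs in the same order, and the small subunit 3.36%, 3.242% and 2.93%. Control was highest and hCD33m lowest for both subunits. The ratio of large to small subunit UMIs was 1.28, 1.264 and 1.261, so both subunits were lower by a like proportion. UMIs of the mitochondrial genome took 1.98%, 2.318% and 2.002%, and the nuclear RNA Malat1 took 3.72%, 3.929% and 4.215%, highest where the members were lowest. The part of Malat1 in these shares was not tested.

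Single cells within a library spread far more widely than the libraries did. The middle of the cells sat at 7.356% in Control, 7.088% in hCD33M and 6.352% in hCD33m, while the range from the 5th to the 95th percentile was 4.794 to 11.2%, 4.711 to 10.74% and 4.2 to 9.699%. In cells of 4000 to 8000 UMIs the SD over cells was 2.043, 1.932 and 1.766 percentage points, 5.676, 5.35 and 5.153 times what counting alone would give. Cells thus differed in their ribosomal protein share at like depth, and the 3 libraries overlapped over most of their range.

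Members differed widely in level. Each mRNA is counted once at its 3′ end, so CPM can be set side by side between genes without dividing by length. Rps29, a small zinc-binding protein of the small subunit head, was highest over all kept cells at 3077 CPM. Rplp1, an acidic protein of the stalk that calls elongation factors to the ribosome, followed at 2723.7 CPM. Next came the small subunit proteins Rps24 at 1564.8 and Rps12 at 1499.1 CPM and the large subunit protein Rpl13 at 1448.9 CPM. At the other end were Rpl7l1 at 112.9 CPM, Rpl13a at 123.3 CPM, Rps27l at 132.1 CPM, Rpl22l1 at 150.8 CPM and Rpl31 at 243.2 CPM. Rpl7l1, Rps27l and Rpl22l1 are paralogues of Rpl7, Rps27 and Rpl22, and of the 5 lowest members only Rpl31 and Rpl13a are not named for a paralogue. The order of levels was nearly the same in every library, with a Spearman correlation over the 80 members of 0.9872 between hCD33M and Control, 0.9804 between hCD33m and Control and 0.9949 between the transgenic libraries.

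**Figure D1:**
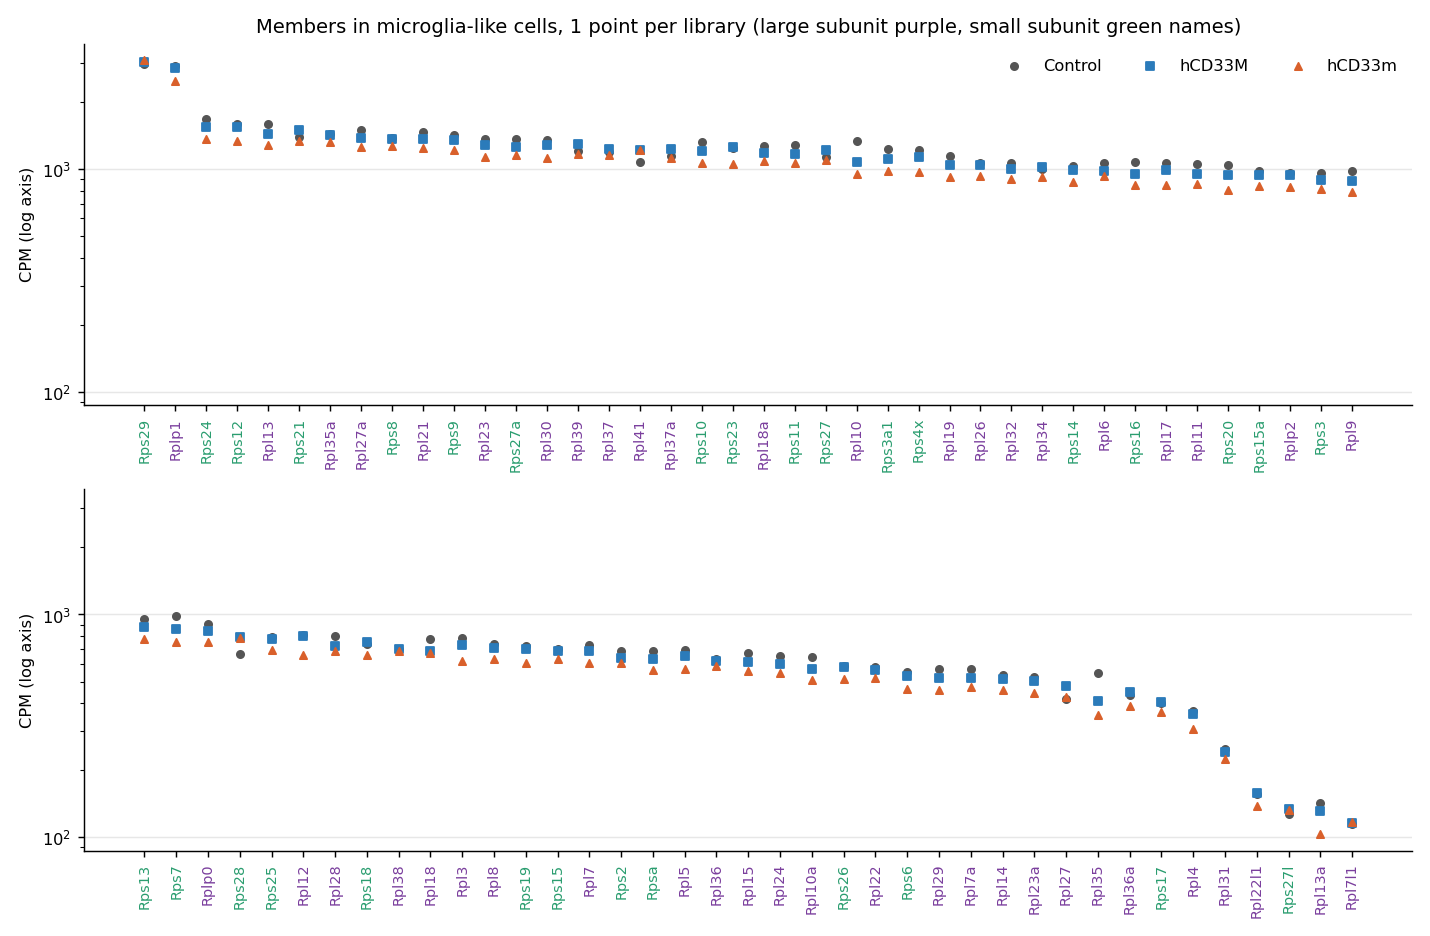
Level of 79 of the 80 members in microglia-like cells, in CPM on a log axis, with 1 point per library and the members ordered by level in 2 panels, large subunit names in purple and small in green. Rps29 and Rplp1 stand above the rest, Rpl7l1 and Rpl13a lie at the low end, and the 3 points of a member sit close together beside the spread between members.

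Most members were lower in hCD33m than in Control by a like amount. The median log2 ratio was -0.23 for the large and -0.24 for the small subunit, a difference of 0.00 between the medians. Of 80 members 74 lay below 0, each with an interval wholly below it. Over all 6631 genes with at least 20 CPM the median log2 ratio was -0.00 and 50.04% lay below 0. A total of 30 members, 19 of the large and 11 of the small subunit, were at least 1.2 times lower, against 4.24% of all genes. None was at least 1.2 times higher, against 4.72% of all genes. Rpl13, for one, had 1597.9 CPM in Control, 1439.2 CPM in hCD33M and 1275.8 CPM in hCD33m.

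hCD33M lay between, closer to Control. Its members had a median log2 ratio to Control of -0.08, with -0.09 for the large and -0.06 for the small subunit, and 53 of 80 intervals were wholly below 0, 10 wholly above and 17 held 0. Only Rpl35 and Rpl10 were at least 1.2 times lower (1.33% of all genes), and no member was at least 1.2 times higher (2.64% of all genes). Of all genes, 44.96% had a log2 ratio below 0, against 63 of the 80 members.

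Between the transgenic libraries, hCD33m was lower than hCD33M at 77 of 80 members, against 55.36% of all genes. The median log2 ratio was -0.16 for each subunit and -0.02 over all genes. Here 2 members were at least 1.2 times lower, Rpl13a and Rpl12, both of the large subunit (3.63% of all genes), and none higher (2.82%). The 3 comparisons share libraries and are not independent of each other. The spread of the members about their median was narrowest in this pair, with an SD over members of 0.06 on the log2 scale against 0.14 for hCD33m and 0.10 for hCD33M over Control. The order hCD33m, hCD33M, Control from low to high was taken by 63 members and by 20.72% of all genes. The next order, hCD33m, Control, hCD33M, was taken by 11 members and by 18.29% of all genes. In 3 members Control was lowest with hCD33M highest (16.35% of all genes), and in 3 with hCD33m highest (20.4%).

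**Figure D2:**
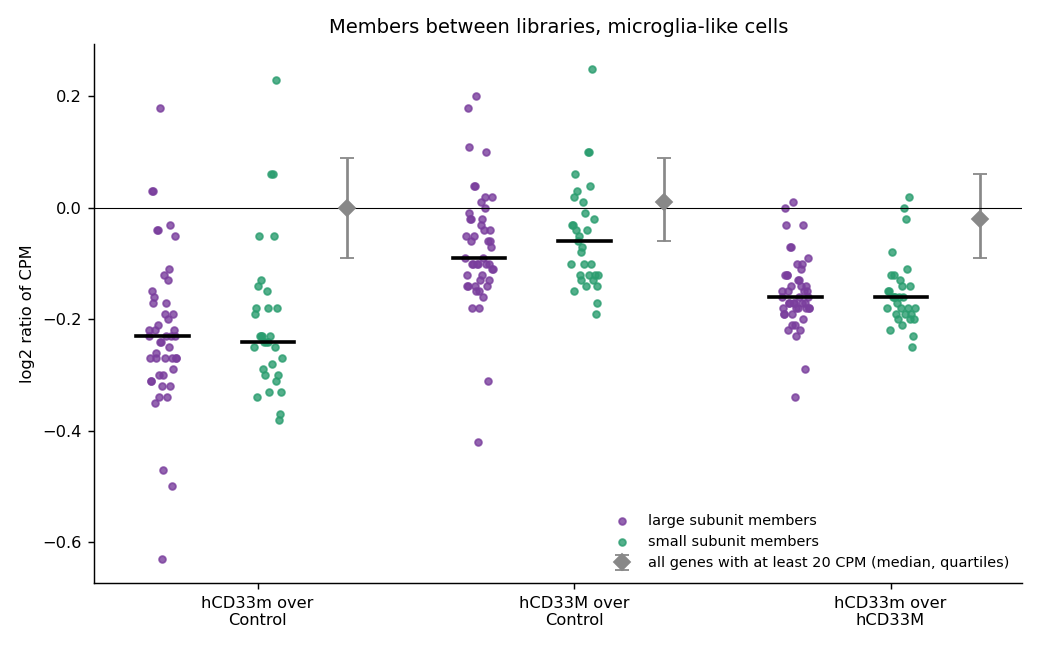
Log2 ratio of each member between libraries in microglia-like cells, for hCD33m over Control, hCD33M over Control and hCD33m over hCD33M, with 1 point per member, large and small subunit members drawn apart, their medians as black lines, and the median and quartiles of all genes with at least 20 CPM in grey. The subunits overlap throughout and lie below the median of all genes in each pair, and a few points stand apart, down to -0.63 and up to 0.23 for hCD33m over Control.

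Members farther below Control than the rest were led by Rpl35, a large subunit protein beside the tunnel through which the new chain leaves. It had 548.6 CPM in Control, 409.7 CPM in hCD33M and 354.8 CPM in hCD33m. The log2 ratio to Control was therefore -0.42 for hCD33M (-0.46 to -0.38) and -0.63 for hCD33m (-0.67 to -0.59). Both transgenic libraries lay below Control, by more than any other member.

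Rpl10, which joins the large subunit last and sits near its catalytic centre, had 1342.2 CPM in Control, 1080.6 CPM in hCD33M and 946.2 CPM in hCD33m. Against Control it had a log2 ratio of -0.31 for hCD33M (-0.34 to -0.29) and -0.50 for hCD33m (-0.53 to -0.48). Rps7, a protein that the small subunit needs for its assembly, took the same order with 982.0, 858.3 and 753.7 CPM and log2 ratios to Control of -0.19 and -0.38. Rpl10a, of the stalk where used tRNA leaves, had 645.9, 571.6 and 506.8 CPM and log2 ratios of -0.18 and -0.35. For Rps7 and Rpl10a the step from Control to hCD33M and that from hCD33M to hCD33m were of like size, while for Rpl10 the second step was smaller, a log2 ratio of -0.19 (-0.22 to -0.17). Rpl18, by contrast, had 778.7 CPM in Control and lay at 688.0 and 672.6 CPM in hCD33M and hCD33m, a log2 ratio of -0.18 and -0.21 to Control and only -0.03 between them.

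Other members were lower in hCD33m than in both other libraries, with a smaller step or none between hCD33M and Control. Rpl13a, which outside the ribosome holds back translation of inflammatory mRNAs, had 142.4 CPM in Control, 130.6 CPM in hCD33M and 103.1 CPM in hCD33m. Its log2 ratio was -0.47 to Control (-0.54 to -0.39) and -0.34 to hCD33M (-0.41 to -0.27), but -0.13 between hCD33M and Control. Rpl12, at the base of the stalk, had 812.9 and 799.2 CPM in Control and hCD33M and 655.8 CPM in hCD33m, a log2 ratio of -0.31 and -0.29. Rps23, of the decoding centre, had 1247.6, 1255.6 and 1058.7 CPM, with log2 ratios of -0.24 to Control and -0.25 to hCD33M. Rpl3, near the catalytic centre, had 782.3, 728.0 and 618.9 CPM, and Rps20 had 1041.6, 943.9 and 804.0 CPM. For Rpl12 and Rps23 the log2 ratio between hCD33M and Control was -0.02 and 0.01, so hCD33m alone stood apart, while for Rpl3 and Rps20 it was -0.10 and -0.14.

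A smaller group stayed level or went the other way. Rps28, a small protein at the exit of the mRNA channel, had 666.2 CPM in Control, 794.7 CPM in hCD33M and 783.2 CPM in hCD33m. Relative to Control the log2 ratio was 0.25 for hCD33M (0.22 to 0.29) and 0.23 for hCD33m (0.20 to 0.26). Rpl41, the shortest ribosomal protein, had 1071.3, 1214.2 and 1215.7 CPM and a log2 ratio of 0.18 in both. Control was lowest for these members and the transgenic libraries were level.

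Rps29 had 2945.9, 3032.6 and 3073.1 CPM in Control, hCD33M and hCD33m, a log2 ratio to Control of 0.06 in hCD33m (0.05 to 0.08). Rpl27 was high in hCD33M alone, with 416.3, 477.5 and 425.3 CPM, a log2 ratio of 0.20 to Control in hCD33M (0.16 to 0.24) and 0.03 in hCD33m (-0.01 to 0.07). Rpl39, which lines the exit tunnel, and Rpl37a were also highest in hCD33M, but lowest in hCD33m. Rpl39 had 1201.2, 1295.1 and 1171.8 CPM and Rpl37a had 1146.4, 1232.8 and 1116.4 CPM. Their log2 ratios to Control were 0.11 and 0.10 in hCD33M and -0.04 for each in hCD33m. Members could thus lie above Control in hCD33M and below it in hCD33m.

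Of the paralogues, Rps27l and Rpl7l1 were nearly level. Rps27l, a p53 target, had 127.6, 133.4 and 133.1 CPM in Control, hCD33M and hCD33m, and Rpl7l1, which acts in building the large subunit, had 114.5, 115.3 and 116.5 CPM, with intervals between hCD33m and Control that held 0 for each. Rpl22l1 had 155.6, 157.6 and 137.9 CPM, a log2 ratio of -0.17 to Control and -0.19 to hCD33M in hCD33m. It was thus near the member median where the other paralogues were not.

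The 4 members on the X chromosome, Rpl10, Rpl36a, Rpl39 and Rps4x, did not share 1 level of difference. Rps4x had 1213.2, 1131.0 and 967.7 CPM, a log2 ratio of -0.33 in hCD33m and -0.10 in hCD33M, and Rpl36a had 433.3, 446.9 and 390.1 CPM, a log2 ratio of -0.15 and 0.04. Over the 4 the median log2 ratio was -0.24 for hCD33m over Control, with a range of -0.50 to -0.04, against -0.23 for the 76 members elsewhere.

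The members that stood apart did so in most subsets of the cells. Within 6 microglia-like clusters with at least 50 cells per library, Rpl35, Rpl10, Rpl13a, Rps7, Rps20, Rps28, Rpl41, Rps29, Rps27l and Rpl27 lay on the same side of the member median in 6 of 6 clusters for hCD33m over Control. Across 5 ranges of UMIs per cell they did so in 4 or 5 of 5. Each cluster and range holds cells of the same libraries, so these are not replicates. They are also parts of the sums by which these members were picked, so agreement is partly built in. A member near the median could do the same: Rplp0, at -0.03 from it, kept its side in 6 of 6 clusters.

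Coding length went with the direction in which members parted. Over the 80 members the Spearman correlation of the log2 ratio with coding length was -0.5716 for hCD33m over Control and -0.5966 for hCD33M over Control, which share the Control library, and -0.231 for hCD33m over hCD33M. Over 6411 other genes the values were 0.1589, 0.2379 and -0.02343. The lengths run from 75 to 1257 bases with a median of 454.5, and the classes that follow were set after the values were seen. The 10 members under 300 bases, among them Rps28, Rpl41, Rps29, Rpl39, Rpl37a, Rps21 and Rps27, had a median log2 ratio of -0.03 in hCD33m and 0.10 in hCD33M, with 9 of 10 above 0 in hCD33M. The 47 members of 300 to 600 bases had medians of -0.23 and -0.07, and the 23 above 600 bases, Rpl3 and Rpl10 among them, had -0.27 and -0.10. Medians of other genes lay closer together: 165 under 300 bases had -0.03 and 0.00, 833 of 300 to 600 bases -0.04 and -0.02, and 5413 longer ones 0.01 and 0.02. Rpl35, of 369 coding bases, lay far below its length class.

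**Figure D3:**
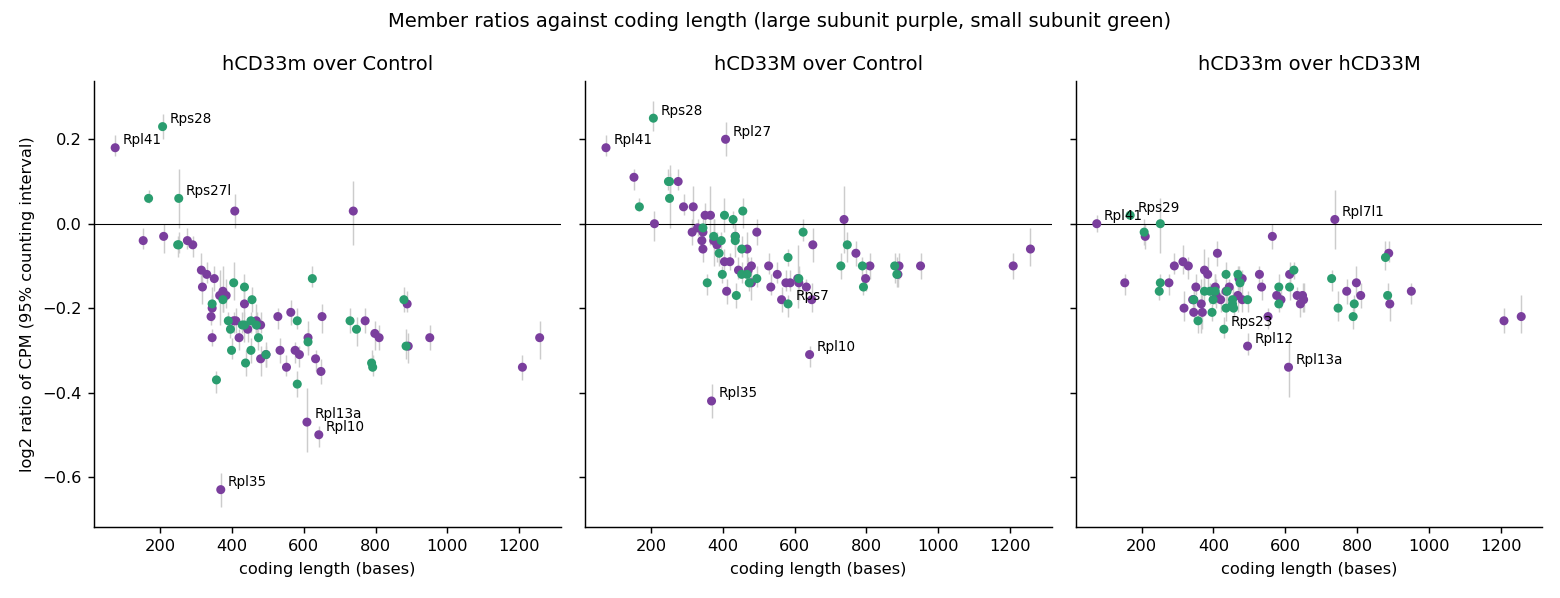
Log2 ratio of each member to Control against its coding length in bases, for hCD33m and hCD33M, and of hCD33m to hCD33M, with 1 point per member and exact 95% counting intervals as lines. In the panels against Control the 10 shortest members lie highest with medians of -0.03 and 0.10, those above 600 bases lie lowest with -0.27 and -0.10, and Rpl35 falls below members of its length.

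The same slope was seen within clusters, with Spearman correlations of -0.5574 to -0.4272 for hCD33m and -0.5863 to -0.3822 for hCD33M over Control in 6 clusters. Within UMI ranges they were -0.5686 to -0.327 and -0.6172 to -0.3027. In the other named classes it was weaker than over all microglia-like cells, with -0.4256 and -0.4952 in border-associated macrophage-like cells. These 2 values lay within the span of the UMI ranges. The slope was -0.2806 and -0.3579 in those of them with under 0.6% of UMIs from microglial markers, and -0.3937 and -0.1858 in monocyte-like cells. Whether length, another property that goes with it, or the making of the libraries carries this slope was not tested. Members with and without a pyrimidine run at the start had median log2 ratios of -0.23 and -0.24 for hCD33m and of -0.05 and -0.10 for hCD33M over Control.

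Copies of these genes make some levels uncertain. Reads were counted over the last bases of transcripts. From GENCODE annotation of the same assembly, 1 coding transcript was taken per member. In its last 400 bases, 66 of 80 members share at least 1 stretch of 75 bases with another annotated gene. For 17 of these members such a gene is listed in the libraries. The counts rest on the transcript taken: that of Rps20, with 3706 bases for 357 coding bases, shared none. Rpl10-ps3, which holds all of the 75-base stretches of Rpl10, had 77.08 CPM in Control, 118.4 CPM in hCD33M and 93.8 CPM in hCD33m. Its log2 ratio to Control was thus 0.62 and 0.28 while that of Rpl10 was -0.31 and -0.50. Adding copy and member left Rpl10 at -0.24 and -0.45. Rpl35 with its copies Gm10269 and Gm2000 stood at -0.38 and -0.59. Both sums thus stayed far below the median of members. They cannot recover reads that were assigned to no gene, and of the 10 genes that share stretches with Rpl10 only 1 is listed.

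Copies lay on either side of Control. Rps27rt had 112.5, 187.9 and 158.9 CPM in Control, hCD33M and hCD33m, above Control in both, while Rps27 had 1136.3, 1214.6 and 1101.0 CPM. Gm10076, a copy of Rpl41, had 43.35, 21.61 and 16.32 CPM, below Control in both, and Rpl41 with it counted in had a log2 ratio of 0.14 in hCD33m and 0.15 in hCD33M. Rpl27-ps3, a copy of Rpl27, had 18.89, 10.12 and 9.177 CPM, also below Control in both. Rpl27 with it counted in had a log2 ratio of -0.00 in hCD33m and 0.16 in hCD33M. Of the 10 members whose copies reached 10 CPM, the copies were higher than Control in hCD33m for 3, lower for 3 and held 0 for 4. The part of shared reads in these values was not tested.

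Control was highest and hCD33m lowest in each of the 6 microglia-like clusters with at least 50 cells per library. The shares in Control, hCD33M and hCD33m were 6.899%, 6.581% and 6.03% in cluster 0, led by Trim44 and Hist1h2ac, and 9.619%, 9.026% and 8.272% in cluster 1, led by Klf2 and Emp3. In cluster 6, led by the interferon-response genes Ifit3 and Isg15, they were 8.702%, 7.524% and 6.82%. Clusters thus differed among themselves by more than the libraries did. The largest cluster, number 7, led by Khdrbs3 and Upk1b, held 7.664%, 7.317% and 6.583%. Over these 6 clusters, median log2 ratios ran from -0.39 to -0.19 for hCD33m over Control, from -0.22 to -0.08 for hCD33M over Control and from -0.16 to -0.06 for hCD33m over hCD33M. Clusters 2 and 7 had sex-linked genes among their leading genes. In cluster 10, led by the early response genes Fos and Dusp1, the libraries held 38, 9 and 537 cells and 7.688%, 6.169% and 6.483% of UMIs.

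**Figure D4:**
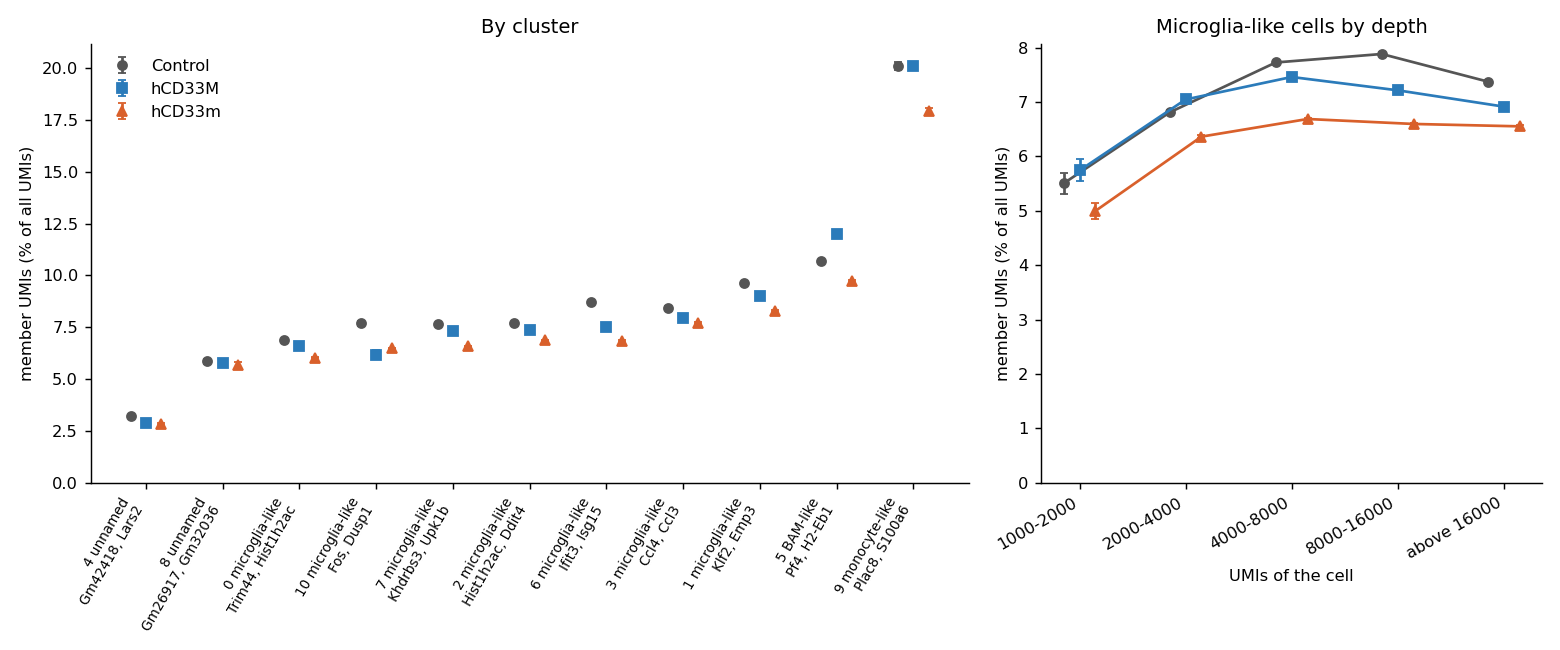
Share of UMIs from ribosomal protein genes in percent, by library, in every cluster and, for microglia-like cells, in ranges of UMIs per cell, with exact 95% counting intervals. Control lies highest and hCD33m lowest in each microglia-like cluster with at least 50 cells per library, monocyte-like cells reach 20.1% in Control, and with depth the share rises up to 4000 to 8000 UMIs in all libraries, up to 8000 to 16000 UMIs in Control, and is lower above.

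Depth and ribosomal protein share went together at the low end. At 1000 to 2000 UMIs the share was 5.505% for Control, 5.743% for hCD33M and 4.998% for hCD33m, and in cells of 2000 to 4000 UMIs it was 6.811%, 7.048% and 6.365%. It was 7.729%, 7.462% and 6.689% at 4000 to 8000 UMIs, 7.885%, 7.217% and 6.598% at 8000 to 16000 UMIs and 7.377%, 6.917% and 6.554% above. hCD33m was lowest in each of the 5 ranges, with median log2 ratios to Control of -0.21, -0.13, -0.23, -0.28 and -0.21. hCD33M had a slightly higher share than Control below 4000 UMIs and a lower one above, with median log2 ratios of 0.07, 0.01, -0.07, -0.14 and -0.10. Control and hCD33M had 33 and 31 cells in the lowest range and 313 and 782 in the next. In the ranges above they had 2297 and 3240, 287 and 404, and 80 and 77 cells. The difference between hCD33M and Control thus had no fixed sign at matched depth. Its medians above 0 were 0.07, in the range with the fewest cells of these libraries, and 0.01.

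Between cells of 8000 to 16000 and of 2000 to 4000 UMIs no member was at least 1.2 times higher in the deeper cells of all 3 libraries (2.58% of all genes) and none at least 1.2 times lower (3.63%). Control had a median log2 ratio of deep over shallow cells of 0.22, hCD33M one of 0.03 and hCD33m one of 0.05. Over all genes the medians were -0.02, -0.00 and -0.01. Above 0 in all 3 libraries were 52 members, and from 41 to 66 under the alternatives tried. The same count over all genes was not made. Highest on average was Rpl4, with log2 ratios of 0.39, 0.19 and 0.10, followed by Rpl31 with 0.24, 0.17 and 0.23, Rpl3 with 0.27, 0.21 and 0.12 and Rps25 with 0.27, 0.14 and 0.16. Rpl4 and Rpl3 are among the longest members, while Rpl31 and Rps25 have 375 coding bases each. Over the 80 members the Spearman correlation of the mean log2 ratio with coding length was 0.09677. With CPM over all kept cells it was -0.419. Lowest was Rps26, which meets the mRNA as it leaves, with 0.13, -0.10 and -0.06, then Rpl27a with 0.10, -0.05 and 0.02, Rpl35a with 0.14, -0.05 and 0.01, and Rpl7l1 with 0.12, 0.11 and -0.13. For these 4 the libraries did not go the same way.

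The other cell classes in the sort carried more of these mRNAs. Monocyte-like cells, of which there were only 18, 23 and 28, gave 20.1% of their UMIs to the members for Control (19.91 to 20.29), 20.11% for hCD33M (19.95 to 20.27) and 17.92% for hCD33m (17.75 to 18.09). Their median depth was 10025.5, 10635 and 5816 UMIs, against 5556.5, 5190.0 and 5276.5 in microglia-like cells, so the gap in depth was large in Control and hCD33M and small in hCD33m. The monocyte marker Plac8 stood at 2539.8, 2997.2 and 2826.1 CPM and the microglial P2ry12 at 108.4, 278.4 and 409.4 CPM. Of the members, 76 were at least 1.5 times higher than in microglia-like cells of the same library in all 3 (8.31% of all genes), among them all 32 of the small subunit, and none was as much lower (27.9% of all genes). The median log2 ratio was 1.39, 1.45 and 1.39, and over all genes it was -0.57, -0.47 and -0.42. Malat1 took 1.222%, 1.335% and 2.055% of monocyte-like UMIs, below its share in microglia-like cells.

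Highest of all was Rpsa, a small subunit protein also known as a laminin receptor, with 2956.4, 3038.1 and 2371.7 CPM in monocyte-like cells of Control, hCD33M and hCD33m against 684.9, 632.3 and 561.8 CPM in microglia-like cells. The log2 ratios were 2.11 (1.98 to 2.24), 2.26 and 2.08. Rps19, whose loss causes Diamond-Blackfan anaemia, had 2739.5, 2894.8 and 2756.2 CPM against 719.3, 697.5 and 607.8 CPM. For both, every library had its higher level in monocyte-like cells. Rplp0, the base of the stalk, had log2 ratios of 1.89, 2.06 and 1.82, and Rpl38, known for its part in translating Hox mRNAs, had 1.88, 1.80 and 1.98.

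The 4 members that were not 1.5 times higher in each library were of the large subunit, and the stalk was split. Rplp1, next to Rplp0 in the stalk, had 2653.9, 2866.2 and 2776.2 CPM in monocyte-like cells against 2910.8, 2834.2 and 2495.0 CPM in microglia-like cells, with log2 ratios of -0.13, 0.02 and 0.15. Rpl7l1 was lower, with 57.07, 98.27 and 54.92 CPM in monocyte-like against 114.5, 115.3 and 116.5 CPM in microglia-like cells, and intervals of the log2 ratio of -2.07 to -0.12, -0.88 to 0.35 and -2.09 to -0.24. Rpl12 had log2 ratios of 0.55, 0.65 and 0.81, and Rpl22l1 had 1.16, 1.39 and 0.42. After these the lowest mean was that of Rpl21, with log2 ratios of 0.80, 0.79 and 0.86, far above 0. Rps27l, the third paralogue, had 0.73, 1.31 and 1.02 and so went with the other members.

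**Figure D5:**
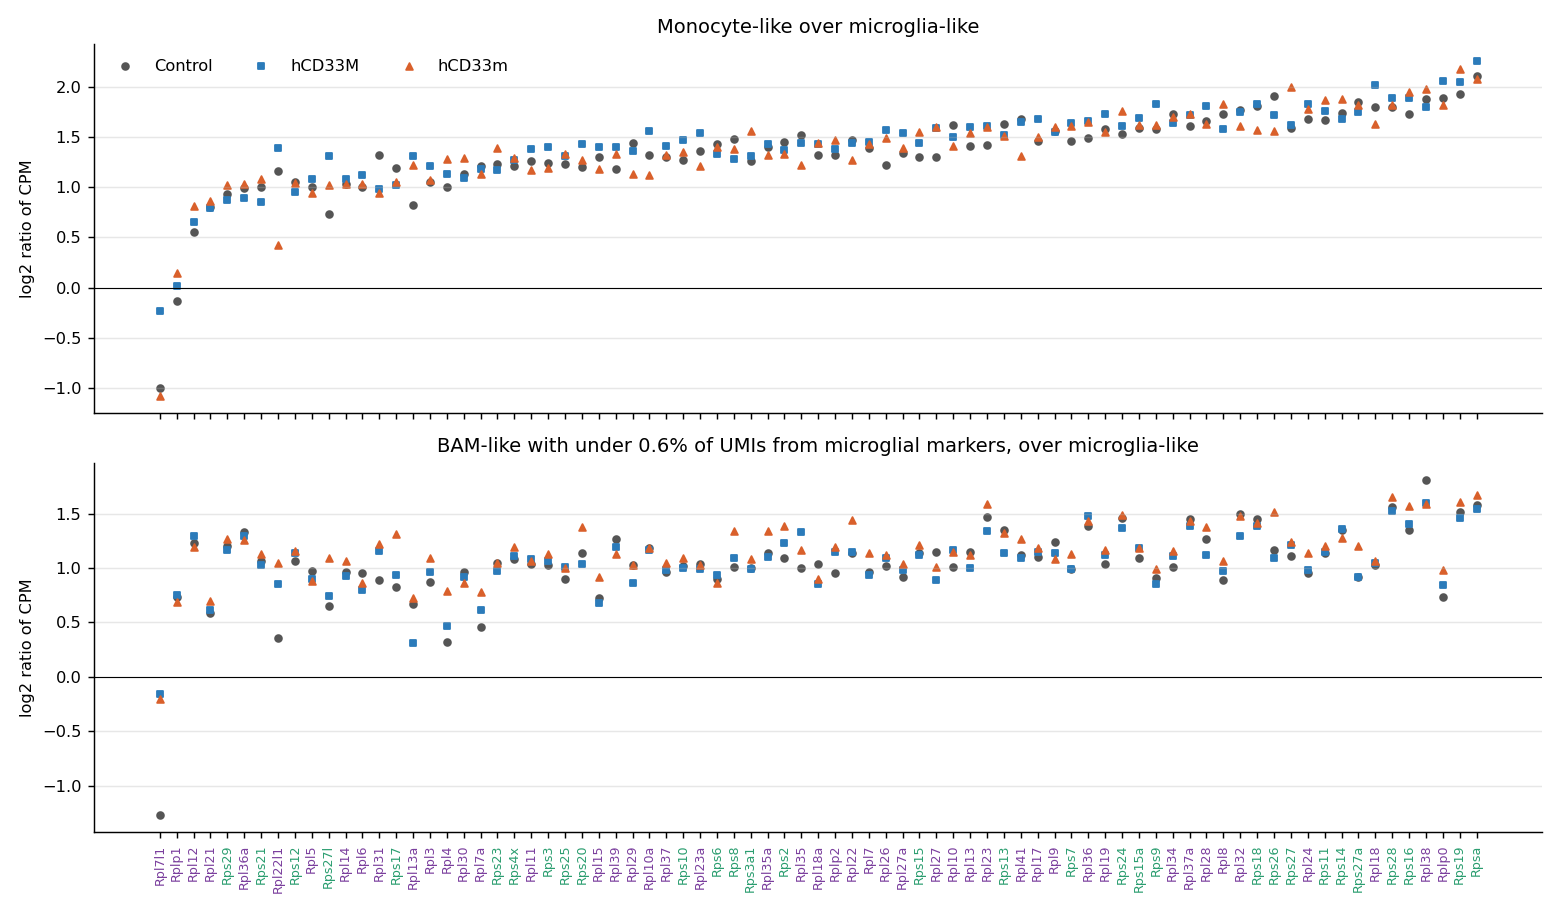
Log2 ratio of 79 of the 80 members to microglia-like cells of the same library, with 1 point per library, for monocyte-like cells (top) and for border-associated macrophage-like cells with under 0.6% of UMIs from microglial markers (bottom), both in the order of the top panel. Nearly all members lie above 0 in both, Rpsa and Rps19 are highest in monocyte-like cells, Rplp1 lies near 0 there, and Rpl7l1 lies below 0 in both.

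Border-associated macrophage-like cells, 84, 101 and 127 in number, lay between, with 10.68%, 11.99% and 9.732% of UMIs from the members. hCD33M was highest here and hCD33m lowest. A total of 13 members were at least 1.5 times higher than in microglia-like cells of all 3 libraries (2.14% of all genes) and none as much lower (2.02%). The median log2 ratios were 0.46, 0.71 and 0.53, against -0.12, -0.20 and -0.12 over all genes. Above 0 throughout were 79 members, a count not made over all genes. Rpl38 led with log2 ratios of 0.90, 1.12 and 0.93, then Rpsa with 0.66, 1.06 and 0.93 and Rps28 with 0.76, 1.06 and 0.85. At the low end were Rpl7l1 with -0.50, -0.24 and -0.29, Rpl13a with 0.35, 0.15 and 0.23, Rpl21 with 0.16, 0.37 and 0.21 and Rpl4 with 0.13, 0.26 and 0.37. Rpl7l1 was thus the only member below 0 in both classes and every library.

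Microglial RNA was present in many of these cells. They carried 8 microglial markers at 1.079%, 0.8332% and 1.072% of UMIs, and microglia-like cells of Control carried them at 1.632%. Leaving out cells with at least 0.6% of such UMIs, a limit set after the data were seen, kept 35, 56 and 60 cells with 16.49%, 15.69% and 15.1% of UMIs from the members. In these, 75 of 80 members were at least 1.5 times higher than in microglia-like cells (4.57% of all genes) and none as much lower (21.4%), with median log2 ratios of 1.04, 1.09 and 1.15. The 49, 45 and 67 cells left out held 9.386%, 10.03% and 7.838%, at a median of 15465, 11283 and 14778 UMIs. The order of the libraries and the size of the difference from microglia-like cells therefore rest on which cells are counted, and the part of mixed droplets was not tested.

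The genotype differences were not the same in these classes. In monocyte-like cells the median log2 ratio was -0.20 for hCD33m over Control, with 65 of 80 below 0, and 0.01 for hCD33M over Control. Border-associated macrophage-like cells gave -0.16 for hCD33m with 66 below 0, and 0.16 for hCD33M with only 5 below 0. With the cells rich in microglial markers left out they gave -0.14 and -0.07. Medians and counts over all genes were not made for these comparisons, so the members are not set against other genes here. hCD33m was thus below Control in each class, and hCD33M changed sign with the cells chosen.

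Ribosomal proteins that the symbols do not catch were read apart, 5 of 10 on the list with at least 20 CPM. Fau, a ubiquitin-like fusion with the small subunit protein eS30, had 2219.0, 2158.6 and 1936.0 CPM in Control, hCD33M and hCD33m, a log2 ratio of -0.20 in hCD33m and -0.04 in hCD33M. Rack1, a signalling scaffold on the small subunit, had 537.4, 516 and 463.2 CPM and log2 ratios of -0.21 and -0.06. Both lay near the median of the members. Rpl36al had 294.5, 333.7 and 307.4 CPM, highest in hCD33M. Over the 5 the median log2 ratio to Control was -0.20 for hCD33m and 0.02 for hCD33M. In hCD33m 1 of them was at least 1.2 times lower than in Control and 1 higher (4.24% and 4.72% of all genes). In hCD33M 1 was higher (2.64% of all genes). The 5 thus did not all go with the members.

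Translation factors and other genes with TOP mRNAs, 21 of 22 on the list, had median log2 ratios of -0.16 for hCD33m over Control, -0.07 for hCD33M over Control and -0.11 between them. In hCD33m 4 were at least 1.2 times lower than in Control (4.24% of all genes) and none higher (4.72%). Eif3f, of an initiation factor, had 195.8, 175.3 and 156.3 CPM in Control, hCD33M and hCD33m, a log2 ratio of -0.32, and Tpt1 had 2335.1, 2207.8 and 1910.0 CPM, a log2 ratio of -0.29. Eef1b2 and Eef1a1, of the elongation factor that brings tRNA, had -0.29 and -0.27. These genes took the order of libraries of most members. In monocyte-like cells 17 of 21 were at least 1.5 times higher in all 3 libraries (8.31% of all genes).

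Other parts of the pathway stayed closer to all genes. Ribosome biogenesis genes, 31 of 40, had medians of -0.09, -0.04 and -0.05 for hCD33m over Control, hCD33M over Control and hCD33m over hCD33M, with 1 lower (Nop53 at -0.29) and none higher in the first, against 4.24% and 4.72% of all genes. Genes of the mitochondrial ribosome, 70 of 78, had -0.06, -0.06 and -0.01, with 4 lower and 3 higher in the first, shares close to the 4.24% and 4.72% of all genes. The mTOR pathway and regulators of TOP mRNAs, 22 of 29, had 0.00, -0.03 and 0.02. Ddit4, an inhibitor of mTOR that stress and glucocorticoids induce, had 9.316, 8.916 and 79.95 CPM in Control, hCD33M and hCD33m, with an interval of the log2 ratio to Control of 2.88 to 3.33. Myc, which drives ribosomal genes, had 28.83, 26.71 and 17.51 CPM, a log2 ratio of -0.72, and Eif4ebp1, which mTOR switches off, had 56.31, 44.43 and 45.72 CPM. Ddit4 and Myc thus stood out in hCD33m alone and Eif4ebp1 was low in both transgenic libraries. In the 18, 23 and 28 monocyte-like cells of Control, hCD33M and hCD33m the biogenesis list had medians of -0.39, -0.21 and -0.12. The mitochondrial ribosome had 0.09, 0.12 and -0.10, and the mTOR list had -0.55, -0.22 and -0.12. The members had 1.39, 1.45 and 1.39 there.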

How the data were processed

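Cells sorted from the brains of Control, hCD33M and hCD33m mice were profiled on the 10x Chromium 3′ platform, 1 library per genotype, all labelled as the second experiment. The authors aligned reads to mm10 with Cell Ranger and read the matrices into Seurat, both of which (genome and Seurat) the submitters' processing notes list. Their annotation release, not given in the sources used here, may differ from the one read below. The files that the authors deposited hold counts, raw UMIs of each gene in each cell, already limited by the authors to barcodes with over 200 genes.

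Cells with over 200 and under 8000 genes and at most 10% mitochondrial UMIs were kept, after the study's own filter. Doublets were not called; leaving out the top 5% of cells by UMIs is one of the alternatives. Counts were scaled per cell and log-transformed, and 2000 variable genes, without the ribosomal protein genes, gave 15 components and a graph of 20 neighbours, which was split by the Leiden method at resolution 0.5 (scanpy 1.11.5, igraph 0.11.9, scikit-learn 1.9.0, numpy 2.4.6, scipy 1.17.1 and pandas 2.3.3 in Python 3.11.15). Clusters were named from lists of marker genes of microglia, monocytes, border-associated macrophages and further cell types.

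Raw UMIs were summed per library and class and scaled to CPM; ratios carry exact conditional binomial and shares Clopper-Pearson 95% intervals, both for counting error only, since 1 library per genotype allows no test. The kept cells held 21054688, 28273522 and 32149625 UMIs in Control, hCD33M and hCD33m. A gene was called at 1.2 times between libraries or depth ranges and 1.5 times between classes, and in the same direction in all 3 libraries for depth and class. Named members were the 5 farthest from the member median on each side in each pair, the 5 highest and lowest levels, the 4 highest and lowest across classes and depth, the paralogues and the X-linked members, apart from a few that are not reported here. Copies and lengths were read from GENCODE vM21 (GRCm38) by gene symbol, and promoter sequences from RefSeq. The size factors of DESeq2 1.42.0 and the TMM factors of edgeR 4.0.16 (R 4.3.3) were alternatives. The fold and interval scripts were tested on simulated data. Members and lists were chosen with earlier results of these data known.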

Additional observations from a re-analysis of the deposited data

Results flagged for a closer look

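The share of UMIs from ribosomal protein genes was 1.31 percentage points higher in hCD33M than in Control in border-associated macrophage-like cells (11.99% against 10.68%), where microglia-like cells of the same libraries differed by -0.32 points. It stood out because the sign was opposite in the 2 classes, with 1 library per genotype in each, and the difference between them was not tested. With cells that carried at least 0.6% of UMIs from microglial markers left out, the first value became -0.8 points, and in monocyte-like cells it was 0.01 points.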

How the results depend on the processing

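Over 21 results and 184 alternatives, 158 values stayed within counting error, or within 1.5 times for counts, and 26 moved further. None of these comparisons is a test, and some of the 158 were fixed in advance. Minimums of 50 and 5 CPM left the same 80 members, so their values could not move. Another total or size factor shifts all members of a library alike, so it cannot move the large minus small difference. With all kept cells, shares in Control, hCD33M and hCD33m were 7.81%, 7.53% and 6.75% and 1 member was at least 1.2 times higher in hCD33M than in Control. The stricter filter of 1000 genes and 5% mitochondrial UMIs gave 7.30% in hCD33M and 6.60% in hCD33m. Without the top 5% of cells by UMIs the shares were 7.69%, 7.39% and 6.65%. Thinning to 2000 UMIs gave 7.63% in Control and 6.60% in hCD33m, 1 member higher in hCD33M over Control, and 49 members at least 1.5 times higher in border-associated macrophage-like cells. Averaging the 5 UMI ranges with equal weight gave shares of 7.06%, 6.88% and 6.24%, a median log2 ratio of -0.20 for hCD33m over Control, 1 member higher for each transgenic library over Control (17.6% of all genes for hCD33m and 18.02% for hCD33M), 5 lower in hCD33m than in hCD33M (15.82% of all genes), and a large minus small difference of 0.02 in place of -0.02 for hCD33M over Control, a change of sign. In cluster 7 alone the shares were 7.32% in hCD33M and 6.58% in hCD33m, and 5 members were higher in deeper cells of each library. With ribosomal protein, mitochondrial and Malat1 UMIs left out of the total, 20 members were at least 1.5 times higher in border-associated macrophage-like cells. This count became 75 without cells of at least 0.6% microglial-marker UMIs, an alternative added after the data were seen. The causes of these moves were not tested. TMM and DESeq2 factors left 29 members lower in hCD33m than in Control. No paired analysis was possible because each genotype has 1 library.

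At the depth of these sums the intervals of most members are narrower than the differences between libraries, but with 1 library per genotype there is no value here for the spread between animals. Sex cannot be told apart from genotype in comparisons with hCD33m, and the sign of hCD33M over Control changed with UMIs per cell. Monocyte-like cells are few, and the class of border-associated macrophage-like cells rests on which cells are counted.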

Other observations

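The unnamed cells of low depth held 4.04%, 3.637% and 3.468% of UMIs from the members in Control, hCD33M and hCD33m, below every microglia-like cluster, at a median of 1536.5, 1204 and 1060 UMIs. Their ratio of large to small subunit UMIs was the highest of any class, at 1.433, 1.374 and 1.356. The median log2 ratio there was -0.21 for hCD33m over Control, with 74 of 80 members below 0, and -0.13 for hCD33M over Control with 72 below 0. The same counts over all genes were not made. These cells join clusters 4 and 8, which differ in share. Cluster 4, led by Gm42418 and Lars2, held 3.222%, 2.886% and 2.835% in Control, hCD33M and hCD33m. Cluster 8, led by Gm26917 and Gm32036, held 5.851%, 5.774% and 5.699%, so the libraries lay closer together there. In monocyte-like cells the ratio of the subunits was lower, at 1.173, 1.202 and 1.112.

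The members lie on many chromosomes, with 14 on chromosome 7 and 7 each on chromosomes 9, 11 and 17. Members with and without a pyrimidine run had medians of 1.38 and 1.43 in monocyte-like over microglia-like cells and of 0.57 each in border-associated macrophage-like cells.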
